A study of Homo sapiens with 24 samples.

Results

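The MAP kinase phosphatases, which belong to the dual-specificity phosphatase (DUSP) family, were followed in HepG2 cells, an established human hepatoma line, over 6 treatments. The members were chosen by gene name as DUSP1, DUSP4, DUSP5, DUSP6, DUSP8, DUSP10 and DUSP16, and 6 of these 7 genes had a row among the 18915 genes of the count matrix. DUSP5 had no row and was not analysed here. All 6 passed the filter on low counts that left 12685 genes for testing. Cells received vehicle (DMSO), ISRIB at 50 nM, nelfinavir at 20 µM, bortezomib at 50 nM, bortezomib at 50 nM with nelfinavir at 20 µM, or bortezomib at 50 nM with ISRIB at 50 nM, all for 10 h. Bortezomib inhibits the proteasome, nelfinavir is an HIV protease inhibitor that raises phosphorylation of the translation factor eIF2α, and ISRIB makes cells insensitive to that phosphorylation. Each treatment had 4 libraries that the labels call biological replicates, and all 24 come from 1 cell line and 1 time point. The p-values measure the spread between these libraries.

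MAP kinases (ERK, JNK and p38) are switched on when an upstream kinase phosphorylates a threonine and a tyrosine in their activation loop. MAP kinase phosphatases remove both phosphates and so end the signal. Several of their genes are themselves induced by growth factor or stress signalling, which makes them feedback brakes whose transcripts turn over fast. DUSP1 and DUSP4 are nuclear enzymes that act on several classes of MAP kinase, DUSP6 is cytoplasmic and selective for ERK, and DUSP8, DUSP10 and DUSP16 prefer the stress kinases JNK and p38.

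The proximal promoters of the 3 members with the clearest changes are shown to compare their cyclic AMP response elements (CREs), sites read by factors of the CREB and ATF families. Each sequence is the 250 bases before the RefSeq transcription start (RefSeq table on GRCh38.p14), located by exact match in GRCh37 and printed 5′ to 3′ on the gene's own strand, with the CRE (TGACGTCA) and its shorter form TGACG in capitals wherever they lie on either strand. The DUSP1 window is chr5:172198199-172198448 on the minus strand, the DUSP8 window chr11:1593502-1593751 on the minus strand and the DUSP6 window chr12:89746279-89746528 on the minus strand.
DUSP1 promoter: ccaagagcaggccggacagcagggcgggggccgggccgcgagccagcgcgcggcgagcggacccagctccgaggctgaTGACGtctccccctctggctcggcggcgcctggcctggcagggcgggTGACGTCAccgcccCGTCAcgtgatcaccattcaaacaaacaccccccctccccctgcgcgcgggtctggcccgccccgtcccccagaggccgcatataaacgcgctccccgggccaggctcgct
DUSP8 promoter: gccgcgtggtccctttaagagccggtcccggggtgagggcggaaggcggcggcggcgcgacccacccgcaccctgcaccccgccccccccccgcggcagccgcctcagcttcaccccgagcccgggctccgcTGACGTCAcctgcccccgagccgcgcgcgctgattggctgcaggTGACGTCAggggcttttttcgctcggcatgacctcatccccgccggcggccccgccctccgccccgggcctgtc
DUSP6 promoter: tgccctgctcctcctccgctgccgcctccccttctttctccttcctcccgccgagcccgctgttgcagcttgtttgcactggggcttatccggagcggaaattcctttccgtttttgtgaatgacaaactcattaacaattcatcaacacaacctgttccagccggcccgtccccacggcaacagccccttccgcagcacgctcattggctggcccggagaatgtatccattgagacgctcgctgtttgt

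The DUSP1 window held 1 full CRE, starting 125 bases before the start site, and the DUSP8 window held 2, at 118 and 74 bases before it. Each full CRE contains 1 short site on each strand, and the DUSP1 window had 2 further short sites outside its CRE. Of 35093 promoter windows of the same length, 1.65% held a full CRE and 21.2% held a short site. The DUSP6 window, like those found for DUSP10 and DUSP16, held neither, nor any of the other 5 motifs searched on both strands. These were the C/EBP-ATF composite site TGATGNAA (in 3.15% of all windows), the AP-1 site TGANTCA (6.57%), the heat shock element core GAANNTTC (5.78%), the ETS site CCGGAAG (8.52%) and the CArG box (1.16%). A match describes only the letters in the window.

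In vehicle-treated cells the MAP kinase phosphatase transcripts were dominated by a gene outside the chosen members. QuantSeq libraries give 1 read near the 3′ end of a transcript, so CPM (counts brought to a common library total, which was itself scaled by trimmed mean of M-values, TMM) can be set side by side between genes without a correction for length. DUSP9, a cytoplasmic phosphatase of ERK and stress kinases, stood at 291 ± 18.2 CPM (SD, n = 4) in DMSO and took 81.0% ± 2.00 (SD, n = 4) of the reads on the 8 MAP kinase phosphatase genes with a row. DUSP6 followed at 42.4 ± 5.95 CPM, then DUSP8 at 8.34 ± 2.19, DUSP16 at 7.38 ± 1.17, DUSP7, a cytoplasmic ERK phosphatase, at 6.66 ± 0.821 and DUSP1 at 2.60 ± 0.781 (SD, n = 4 each). DUSP10 and DUSP4 were near the detection limit, at 0.438 ± 0.281 and 0.307 ± 0.308 CPM (SD, n = 4 each). Over all 24 libraries together the members had 9028 counts for DUSP6, 3399 for DUSP1, 2657 for DUSP8, 1182 for DUSP16, 76 for DUSP4 and 67 for DUSP10.

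Total counts on genes ran from 5154533 to 6943164 per library. Mitochondrially encoded genes took 18.0% to 23.2% of the counts in the 12 libraries without bortezomib and 24.9% to 40.2% in the 12 with it, and the TMM factors were 1.16 to 1.24 and 0.786 to 0.869 in the same sets. The part of this difference in the results below was tested only by changing the scaling. All 9 hepatocyte markers were detected in every group, with summed levels of 13079 to 14583 CPM in DMSO, 10217 to 10834 in bortezomib and 6731 to 8663 in bortezomib with nelfinavir. Endothelial and fibroblast markers summed to at most 1.26 CPM in any library, and of the 5 leukocyte markers PTPRC and CD3E had no row. The sum of the others, nearly all of it from LYZ, ran from 334 to 417 CPM in DMSO, from 73.5 to 125 in bortezomib and from 66.4 to 434 over all libraries, and the part of the marker differences in the results was not tested. In bulk RNA, fewer cells of a type and less RNA per cell cannot be told apart.

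**Figure D1:**
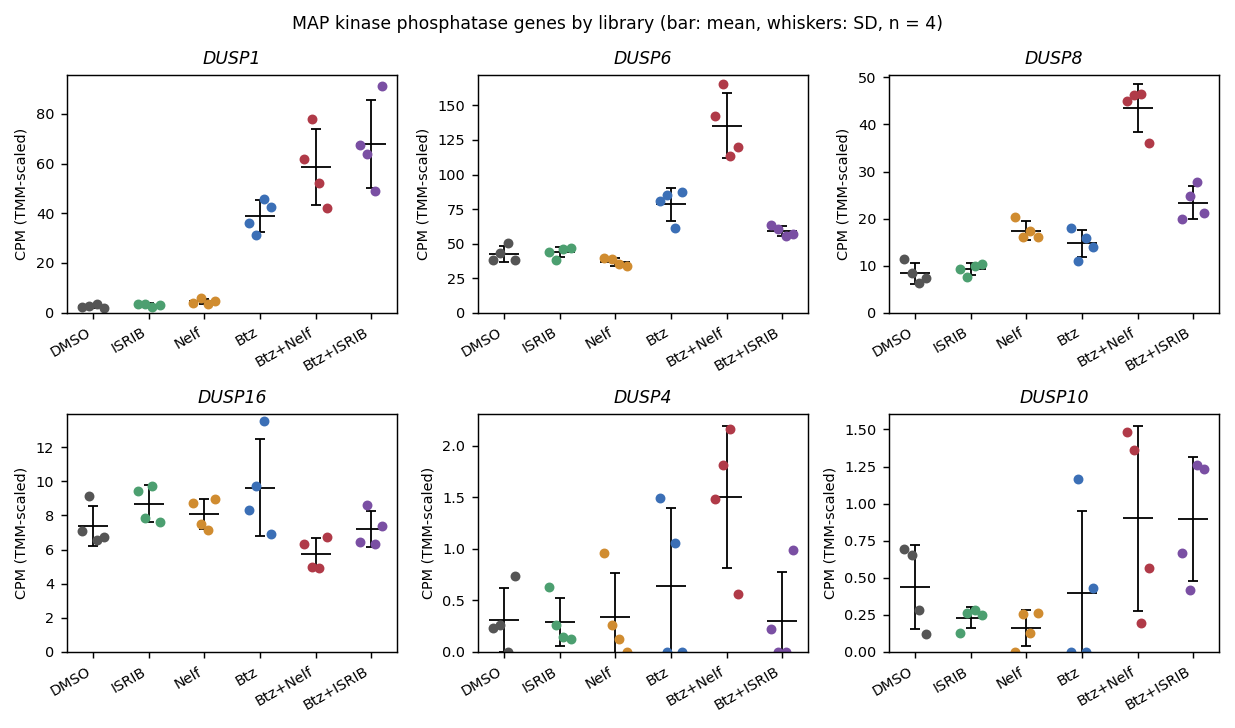
CPM (TMM-scaled, linear axis from 0) of the 6 members in every library of the 6 treatments, with the group mean as a bar and the SD as whiskers (n = 4, Btz for bortezomib and Nelf for nelfinavir). DUSP1 lies between 1.84 and 5.81 CPM in the 12 libraries without bortezomib and between 31.2 and 91.3 in the 12 with it, whereas DUSP8 and DUSP6 are highest in bortezomib with nelfinavir.

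Bortezomib against DMSO addresses the response to proteasome inhibition. DUSP1, DUSP6 and DUSP8 rose, and none of the 6 members fell. These 3 of 6 compare with 27.6% of all tested genes called higher and 25.8% called lower (53.4% called in either direction by edgeR's quasi-likelihood test at a Benjamini-Hochberg adjusted p under 0.05). The median log2 fold change was 0.85 over the 6 members and 0.00 over all tested genes. With more than 50% of the matrix called, 3 of 6 is near the background, and what follows is the size of each gene's change.

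DUSP1, the immediate-early nuclear phosphatase, had 2.21, 2.73, 3.64 and 1.84 CPM in the DMSO libraries and 36.1, 31.2, 45.8 and 42.6 CPM in the bortezomib libraries. Every bortezomib library was far above every DMSO library. On the log2 scale DUSP1 rose by 3.91 (SE 0.235, adjusted p = 1.328e-15). It was 3.41 when library totals alone set the scale.

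DUSP6, the ERK-selective feedback phosphatase, had 38.0, 43.1, 50.5 and 37.9 CPM in DMSO and 80.8, 84.9, 61.0 and 87.3 CPM in bortezomib. The groups did not overlap, which also holds for 50% of all tested genes. DUSP6 thus rose 1.86-fold, by 0.89 on the log2 scale (SE 0.123, adjusted p = 2.281e-07). DUSP8, the JNK and p38 phosphatase, had 11.4, 8.33, 6.30 and 7.35 CPM in DMSO and 18.0, 11.1, 15.8 and 14.1 CPM in bortezomib. The groups overlapped by 1 library on each side. The log2 fold change of DUSP8 was 0.81 (SE 0.184, adjusted p = 3.737e-04). With library totals alone the median of all genes moved by -0.50, 1490 genes were called higher and 6266 lower in place of 3498 and 3275, the DUSP6 change shrank to 0.40 and the DUSP8 call was lost at 0.31 (adjusted p = 0.154, against 3.737e-04 with TMM).

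The other members did not pass the test in bortezomib. DUSP16, which acts mainly on JNK, had 7.09, 9.11, 6.58 and 6.74 CPM in DMSO and 8.34, 9.70, 13.5 and 6.92 in bortezomib, an overlapping pair of groups with a log2 difference of 0.38 (95% interval -0.05 to 0.81, adjusted p = 0.1281). DUSP4 and DUSP10 had at most 7 counts in any DMSO or bortezomib library, and their intervals, -1.06 to 2.99 and -1.84 to 1.65, allow changes of more than 2-fold in at least 1 direction. The genes outside the members went the other way. DUSP9 fell from 291 to 120 CPM (log2 fold change -1.28, SE 0.106, adjusted p = 4.307e-12) and DUSP7 from 6.66 to 2.79 CPM (log2 fold change -1.24, SE 0.331, adjusted p = 0.001919).

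The makeup of the phosphatase pool was compared between treatments. DUSP9 took 45.1% ± 1.73 (SD, n = 4) of the reads on the 8 genes in bortezomib, with no library overlapping the 79.0% to 83.1% of DMSO. DUSP6 went from 11.8% ± 2.00 to 29.5% ± 4.07 and DUSP1 from 0.730% ± 0.237 to 14.7% ± 2.38 (SD, n = 4 each). Summed over the 8 genes the level was 359 ± 14.4 CPM in DMSO and 266 ± 12.5 in bortezomib. The 2 co-treatments stood at 395 ± 32.4 CPM (nelfinavir) and 279 ± 6.82 CPM (ISRIB). For the 3 shares and the sum, bortezomib against DMSO gave a two-sided exact permutation p of 0.0286 each. That is the smallest that 4 against 4 libraries can give. The Benjamini-Hochberg value over the 16 tests made was 0.0508, and none of these tests had one under the threshold of 0.05. The mean DUSP1 share was 14.7% ± 2.73 in the nelfinavir co-treatment, as in bortezomib alone, and 24.3% ± 6.47 in the ISRIB co-treatment (SD, n = 4 each).

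**Figure D2:**
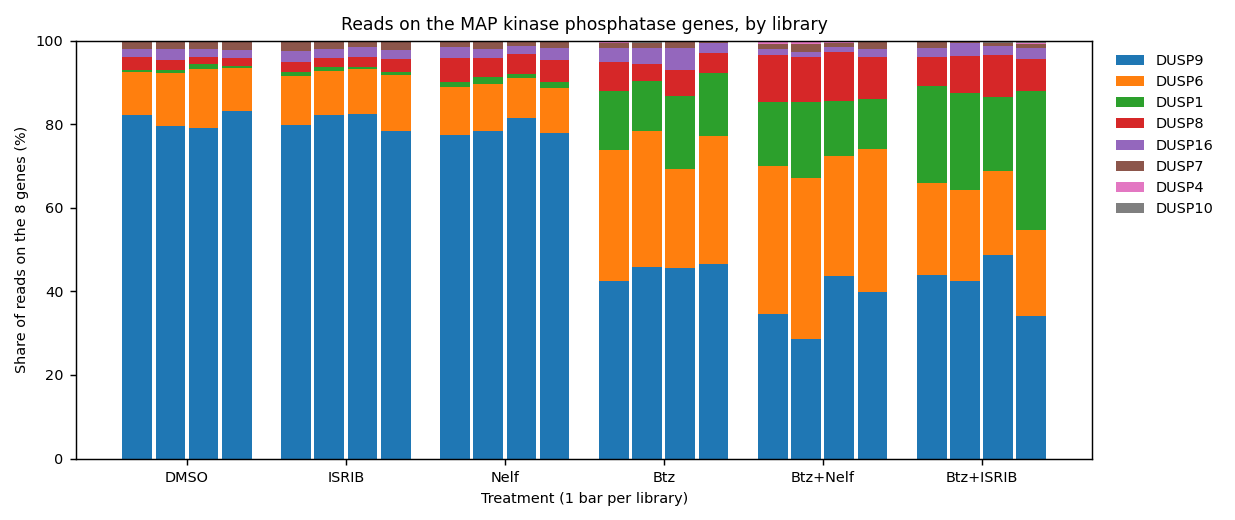
Share of the reads on 8 MAP kinase phosphatase genes taken by each gene (stacked to 100%), 1 bar per library. DUSP9 takes 77.5% to 83.1% in the 12 libraries without bortezomib and 28.6% to 48.8% in the 12 with it, where DUSP6, DUSP1 and DUSP8 take most of the rest.

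Nelfinavir alone against DMSO asks what the eIF2α-directed drug does without proteasome inhibition. DUSP8 and DUSP1 rose and no member fell, 2 of 6 beside 10.4% of all tested genes called higher and 8.84% lower (19.2% in either direction). The member median was 0.13 and that of all genes 0.01 (log2).

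DUSP8 had 20.3, 16.004, 17.4 and 16.1 CPM in nelfinavir, all above the highest DMSO library at 11.4 CPM. Groups did not overlap for 29.6% of all tested genes. DUSP8 rose 2.08-fold, by 1.06 on the log2 scale (SE 0.175, adjusted p = 2.550e-05). Its mean of 17.4 CPM was above the 14.7 CPM of bortezomib alone, but the libraries of the 2 groups overlapped. DUSP1 had 4.06, 5.81, 3.37 and 4.80 CPM in nelfinavir, overlapping with the 3.64 CPM of the highest DMSO library. The log2 fold change of DUSP1 was 0.80 (SE 0.277, adjusted p = 0.03738). This call was lost when DMSO replicate 1, 2 or 4 or nelfinavir replicate 2 or 4 was left out, with adjusted p between 0.02029 and 0.1355 over the 8 libraries left out in turn.

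DUSP6 did not share in this response. It had 39.4, 39.1, 35.2 and 33.6 CPM in nelfinavir, a range that overlapped DMSO, with a log2 difference of -0.20 (95% interval -0.45 to 0.05, adjusted p = 0.3019). DUSP16 had 8.72, 7.49, 7.14 and 8.96 CPM, with a difference of 0.13 (95% interval -0.29 to 0.55, adjusted p = 0.7396). DUSP9 and DUSP7 did not pass the test either, at -0.10 and -0.37 (log2).

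ISRIB alone against DMSO gave no call among the members, and 0% of all tested genes passed edgeR's adjusted threshold. An unadjusted edgeR p under 0.05 was found for 703 of the 12685 tested genes. DESeq2 called 1 gene higher and 20 lower among the 2848 genes to which it gave an adjusted p. With no filter edgeR called 5 higher and 34 lower, and with only the groups compared in the fit 4 higher and 76 lower. DUSP6 had 43.6, 38.4, 46.0 and 46.5 CPM, a log2 difference of 0.04 with a 95% interval of -0.21 to 0.30. DUSP1 differed by 0.26 (-0.34 to 0.86), DUSP8 by 0.15 (-0.22 to 0.52) and DUSP16 by 0.23 (-0.19 to 0.65), and in all 4 genes the libraries of both groups overlapped. Over all tested genes 8.01% had groups without overlap.

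Adding nelfinavir to bortezomib moved 4 of the 6 members. DUSP8, DUSP6 and DUSP1 rose further and DUSP16 fell, beside 28.9% of all tested genes called in either direction, 15.6% higher and 13.4% lower. The member median was 0.92 and that of all genes -0.02 (log2). The same 4 bortezomib libraries are the reference for both co-treatments and the treated group in bortezomib against DMSO, so these comparisons are not independent of each other.

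DUSP8 had 45.0, 46.3, 46.6 and 36.0 CPM in bortezomib with nelfinavir, against 11.1 to 18.0 in bortezomib. The lowest co-treated library was far above the highest bortezomib library, and the change was 2.95-fold (log2 fold change 1.56, SE 0.171, adjusted p = 1.791e-08). DUSP6 had 142, 166, 113 and 119.9 CPM, all above the highest bortezomib library at 87.3 CPM. The rise was 0.78 on the log2 scale (SE 0.120, adjusted p = 6.905e-06). For 21.5% of all tested genes the 2 groups did not overlap.

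DUSP1 had 61.9, 78.1, 52.3 and 42.0 CPM in bortezomib with nelfinavir, and its lowest library lay within the bortezomib range. The log2 fold change was 0.59 (SE 0.180, adjusted p = 0.01378). The call was lost without bortezomib with nelfinavir replicate 2 (adjusted p = 0.05138, with 0.001883 to 0.05138 over the 8 libraries left out in turn). It was also lost with library totals that leave out mitochondrially encoded genes, at 0.42 (adjusted p = 0.08829, the highest of the alternatives, whose lowest was 4.939e-04). These genes took 32.8% to 35.5% of the counts in bortezomib and 24.9% to 29.6% in the co-treatment.

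DUSP16 went the other way, with 6.34, 5.00, 4.91 and 6.76 CPM in bortezomib with nelfinavir. All 4 libraries were below the 6.92 CPM of the lowest bortezomib library, by a narrow margin. The log2 fold change was -0.74 (SE 0.226, adjusted p = 0.01356). Without bortezomib replicate 3, the library with 13.5 CPM, it was -0.50 (adjusted p = 0.1151), and the call was also lost without bortezomib with nelfinavir replicate 2 or 3 (adjusted p = 0.0521 and 0.05667, with 0.007672 to 0.1151 over the 8 libraries left out in turn).

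DUSP4 and DUSP10 were low here too, with 29 counts for DUSP4 over the 4 co-treated libraries. DUSP4 had 1.48, 1.82, 2.16 and 0.563 CPM in bortezomib with nelfinavir and 1.497, 0, 1.06 and 0 CPM in bortezomib. The log2 difference of 1.22 had a 95% interval of -0.56 to 3.002. Outside the members DUSP7 rose from 2.79 to 5.45 CPM (log2 fold change 0.95, adjusted p = 0.03944), a call lost without bortezomib with nelfinavir replicate 2 or 4 or bortezomib replicate 4. DUSP9 was at 144 CPM against 120 in bortezomib (log2 difference 0.26, adjusted p = 0.06206). DUSP9 was called higher without the filter on low counts (adjusted p = 0.01699, the lowest of the alternatives, whose highest was 0.524) and without bortezomib replicate 4 or bortezomib with nelfinavir replicate 1 or 2.

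Adding ISRIB to bortezomib gave a different order. DUSP1 and DUSP8 rose and DUSP6 fell, 3 of 6 members beside 12.2% of all tested genes called in either direction, 6.91% higher and 5.34% lower. The member median was 0.13 and that of all genes 0.01 (log2).

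DUSP1 had 67.5, 63.9, 48.8 and 91.3 CPM in bortezomib with ISRIB, every library above the highest bortezomib library at 45.8 CPM. The rise was 0.80 on the log2 scale (SE 0.180, adjusted p = 0.002515). DUSP8 had 19.8, 24.7, 27.8 and 21.2 CPM, also above all bortezomib libraries, a rise of 0.67 (SE 0.176, adjusted p = 0.009662). For 12.5% of all tested genes these groups did not overlap. DUSP6 had 63.7, 60.3, 55.2 and 56.8 CPM, and 3 of the 4 bortezomib libraries were above this range while the fourth, at 61.0 CPM, was inside it. The log2 fold change of DUSP6 was -0.41 (SE 0.124, adjusted p = 0.02448). That call was lost without bortezomib replicate 2 or 4 or bortezomib with ISRIB replicate 4 (adjusted p = 0.06677, 0.07211 and 0.05007, with 0.004192 to 0.07211 over the 8 libraries left out in turn).

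DUSP16 had 6.46, 8.59, 6.32 and 7.41 CPM in bortezomib with ISRIB, which overlapped bortezomib (log2 difference -0.42, 95% interval -0.87 to 0.03, adjusted p = 0.2291). DUSP9 differed from bortezomib by -0.02 (95% interval -0.24 to 0.20).

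The direct comparison of the co-treatments separated the 3 responsive members. DUSP6 and DUSP8 were higher with nelfinavir than with ISRIB, by 1.20 (SE 0.123, adjusted p = 5.411e-09) and 0.89 (SE 0.165, adjusted p = 1.195e-04) on the log2 scale. No library overlapped in either gene, beside 18.3% of all tested genes without overlap and 13.2% called higher (24.4% called in either direction). DUSP1 did not pass the test, with a log2 difference of -0.21 whose 95% interval, -0.57 to 0.15, leaves room for a modest difference either way. DUSP4, at 1.51 ± 0.687 CPM with nelfinavir and 0.303 ± 0.468 with ISRIB (SD, n = 4 each), had a difference of 2.33 with an interval of 0.27 to 4.39 and an adjusted p of 0.0915. It was called only without bortezomib with ISRIB replicate 4 (adjusted p = 0.02703). Outside the members DUSP7 was higher with nelfinavir, by 1.21 on the log2 scale (adjusted p = 0.01313). This call was lost without bortezomib with ISRIB replicate 2 and in a fit of only the groups compared. DUSP9 missed the threshold at 0.28 (adjusted p = 0.05229) and passed in 5 of 9 alternatives.

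**Figure D3:**
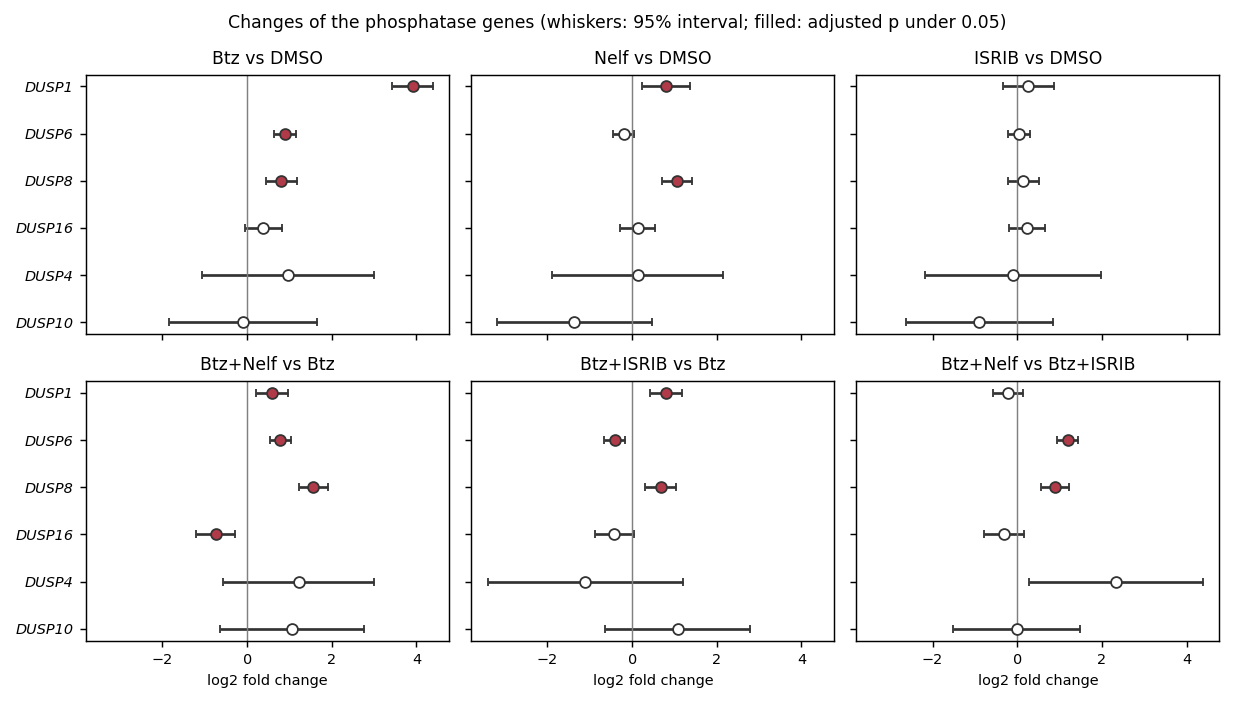
Log2 fold changes of the 6 members in 6 comparisons, with 95% intervals as whiskers and filled points where edgeR's adjusted p was under 0.05. DUSP6 lies at 0.78 when nelfinavir is added to bortezomib and at -0.41 when ISRIB is added, while DUSP1 and DUSP8 lie above 0 in both.

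Bortezomib was also compared with its absence within each co-drug. On the nelfinavir background DUSP1 rose by 3.69, DUSP6 by 1.88 and DUSP8 by 1.31 (log2 fold changes, SE 0.215, 0.124 and 0.162, adjusted p at most 2.490e-08), beside 28.7% of all tested genes called higher and 28.4% lower (57.1% in either direction). DUSP10 (2.33, adjusted p = 0.02335) and DUSP4 (2.06, adjusted p = 0.04444) were also called. Both of these rest on at most 11 counts in a library. The DUSP10 call was lost without bortezomib with nelfinavir replicate 1 or 2 or nelfinavir replicate 1 or 3, and the DUSP4 call without bortezomib with nelfinavir replicate 1, 2 or 3 or nelfinavir replicate 2, 3 or 4. DUSP16, at -0.49, missed the threshold (adjusted p = 0.06013), although its groups did not overlap, as for 50% of all tested genes.

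On the ISRIB background DUSP1 rose by 4.45 (SE 0.227, adjusted p = 2.106e-17), a 21.8-fold change, and DUSP8 by 1.33 (SE 0.177, adjusted p = 1.052e-07). DUSP6 rose by 0.43 (SE 0.125, adjusted p = 0.003723) when scaled by TMM and stood at -0.11 when scaled by library totals alone, where the median of all genes was -0.51, so its direction depends on the scale. These 3 members compare with 29.1% of all tested genes called higher and 25.6% lower (54.7% in either direction). No library of these 3 genes overlapped, as for 48.1% of all genes. DUSP10 did not overlap either but missed the threshold at 1.88 (95% interval 0.16 to 3.59, adjusted p = 0.05946).

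Interaction terms tested whether the effect of nelfinavir or ISRIB was the same with and without bortezomib. For nelfinavir, DUSP6 had an interaction of 0.98 (SE 0.173, adjusted p = 8.079e-05), with a difference of -0.20 without bortezomib and 0.78 with it. DUSP16 had an interaction of -0.87 (SE 0.306, adjusted p = 0.04203), a call that 10 of the 16 fits with a library left out did not keep. Only bortezomib replicates 1 and 4, bortezomib with nelfinavir replicate 4, DMSO replicate 2 and nelfinavir replicates 2 and 3 could be left out without losing it (adjusted p from 0.02623 to 0.1595 over the 16 fits). It was also lost with no filter, with only the groups compared in the fit and with a replicate block (adjusted p from 0.01941 to 0.1465 over the alternatives). These 2 of 6 members compare with 19.7% of all tested genes called, 9.74% with a positive and 10% with a negative interaction. DUSP8 had an interaction of 0.51 (95% interval 0.01 to 1.00, adjusted p = 0.1481) and DUSP1 one of -0.22 (95% interval -0.88 to 0.45, adjusted p = 0.695). Outside the members DUSP7 had an interaction of 1.32 (adjusted p = 0.03792), a call lost in 8 of the 16 fits with a library left out. It was also lost with library totals that leave out mitochondrially encoded genes.

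For ISRIB no member had an interaction past the threshold, beside 4.82% of all tested genes, 2.93% positive and 1.89% negative. DUSP6 was at -0.46 (95% interval -0.81 to -0.10, adjusted p = 0.1311), DUSP8 at 0.52 (0.01 to 1.04, adjusted p = 0.2677) and DUSP1 at 0.54 (-0.17 to 1.25, adjusted p = 0.4435). DUSP6 passed only when bortezomib replicate 3 was left out (adjusted p = 0.04205).

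Ordered by their means, the levels of each member fell into different series. DUSP1 went from DMSO (2.60) through ISRIB (3.07), nelfinavir (4.51), bortezomib (38.9) and bortezomib with nelfinavir (58.6) to bortezomib with ISRIB (67.9 CPM), and only nelfinavir and bortezomib were neighbours without overlapping libraries. DUSP6 went from nelfinavir (36.8) through DMSO (42.4), ISRIB (43.6), bortezomib with ISRIB (59.0) and bortezomib (78.5) to bortezomib with nelfinavir (135 CPM), with gaps between ISRIB and bortezomib with ISRIB and between bortezomib and bortezomib with nelfinavir. DUSP8 went from DMSO (8.34) through ISRIB (9.30), bortezomib (14.7), nelfinavir (17.4) and bortezomib with ISRIB (23.4) to bortezomib with nelfinavir (43.5 CPM), with gaps between ISRIB and bortezomib and before the last group. DUSP16 went from bortezomib with nelfinavir (5.75) through bortezomib with ISRIB (7.19), DMSO (7.38), nelfinavir (8.08) and ISRIB (8.68) to bortezomib (9.62 CPM), and all neighbours overlapped. Groups did not overlap for 48.1% of all tested genes between ISRIB and bortezomib with ISRIB, and for 21.5% between bortezomib and bortezomib with nelfinavir. Between the co-treatments the share was 18.3%, and it was not computed for nelfinavir or ISRIB alone against bortezomib. The groups were ordered by these same levels, so the gaps are descriptive only. DUSP4 stayed between 0 and 2.16 CPM and DUSP10 between 0 and 1.48 CPM in all 24 libraries.

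The genes with the most similar patterns differed between members. Over the 24 libraries, which share the 6 treatments and their depth differences, log2 CPM of DUSP1 had Pearson correlations of 0.981 with SNX9, 0.981 with FAM129B and 0.979 with TXNRD1, the thioredoxin reductase gene. DUSP6 was closest to RBM27 (0.963), MRPL18 (0.954) and NR1D2 (0.952), and DUSP8 to WBP5 (0.958), HDLBP (0.957) and GFPT1 (0.952), the entry enzyme of hexosamine synthesis. For DUSP16 the highest value was 0.779 (CBY1). The 3 genes nearest to 1 member were not among the 3 nearest to another. Such short lists can differ even between members of similar pattern, so this does not measure how alike the members are. About 9307 genes with a mean of at least 5 CPM were compared with each member.

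The MAP kinase pathway around the phosphatases was described with lists of its parts. In bortezomib against DMSO all 3 tested EGF receptor ligands rose (median log2 fold change 1.91), beside 27.6% of all tested genes called higher and 25.8% lower. EREG, which encodes epiregulin, went from 41.7 ± 5.77 to 478 ± 40.0 CPM (SD, n = 4 each) and HBEGF from 1.56 ± 0.517 to 6.01 ± 3.57 CPM (SD, n = 4 each). The third, TGFA, was called at 0.56 (adjusted p = 0.003894), a call that was lost without bortezomib replicate 4 and with library totals alone. Of 16 tested stress MAP3 kinases and activators 7 rose and 2 fell (median 0.32), led by GADD45A, a stress-induced activator of the p38 and JNK cascade, from 23.8 ± 2.75 to 119 ± 9.07 CPM (SD, n = 4 each).

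The same shares of all genes, 27.6% higher and 25.8% lower, are the background of the other lists, several of which lie at or below it. Of 10 tested MAP kinases 5 rose and none fell in bortezomib (median 0.13), among them MAPK8, which encodes a JNK kinase, up by 1.14 on the log2 scale (adjusted p = 2.534e-06). Of 7 MAP kinase kinases 3 rose and 1 fell (median 0.25), and the gene that fell was the p38 activator MAP2K6, with 124 counts over the 4 DMSO libraries and 2 over the 4 bortezomib libraries. The calls of MAP2K1 and MAP2K2 in this list were lost with library totals alone. Of 6 feedback inhibitors of ERK signalling outside the phosphatases 1 rose and 1 fell (median -0.08), namely ERRFI1, an inhibitor of the EGF receptor (1.06, adjusted p = 8.705e-09), and SPRY1, a Sprouty gene (-1.13, adjusted p = 7.406e-04).

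Of 7 tested ERK-responsive target genes 2 rose and 4 fell in bortezomib (median -0.29), beside 27.6% higher and 25.8% lower over all genes. FOSL1, an AP-1 subunit, rose by 2.56 on the log2 scale, whereas EGR1 changed by -2.07 and CCND1, which encodes cyclin D1, by -1.87, so genes of this list moved in both directions while DUSP6 rose. Among 10 tested genes of the dual-specificity phosphatase family whose products lack a MAP kinase binding domain, 3 rose and 3 fell (median -0.22). These counts lie near the share of all genes called, with DUSP13 at 3.50 and STYX at -1.02.

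With nelfinavir added to bortezomib, 5 of the 7 ERK-responsive targets rose and 1 fell (median 0.53), beside 15.6% of all tested genes called higher and 13.4% lower, with IER3 at 1.496 (adjusted p = 1.686e-09) and CCND1 at 1.28 (adjusted p = 8.951e-08). Stress MAP3 kinases and activators had 7 of 16 higher and 1 lower (median 0.39), MAP kinase kinases 3 of 7 higher (median 0.37), MAP kinases 2 of 10 lower (median 0.01), feedback inhibitors 1 of 6 higher (median 0.19) and the other dual-specificity phosphatases 1 higher and 1 lower of 10 (median -0.16). The last 3 of these lists lie near the shares of all genes. Of the 2 MAP kinases, MAPK13 (adjusted p = 0.0342) was not called when any 1 of the 8 libraries was left out, and MAPK12 (adjusted p = 0.0208) not without bortezomib replicate 3 or 4 or bortezomib with nelfinavir replicate 2. Among the EGF receptor ligands HBEGF rose to 22.01 ± 6.80 CPM (SD, n = 4) and EREG was lower at 345 ± 79.7 CPM (SD, n = 4). The EREG call (adjusted p = 0.03092) was lost in 5 of the 8 fits without a library, those leaving out bortezomib replicate 1, 2 or 3 or bortezomib with nelfinavir replicate 3 or 4.

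**Figure D4:**
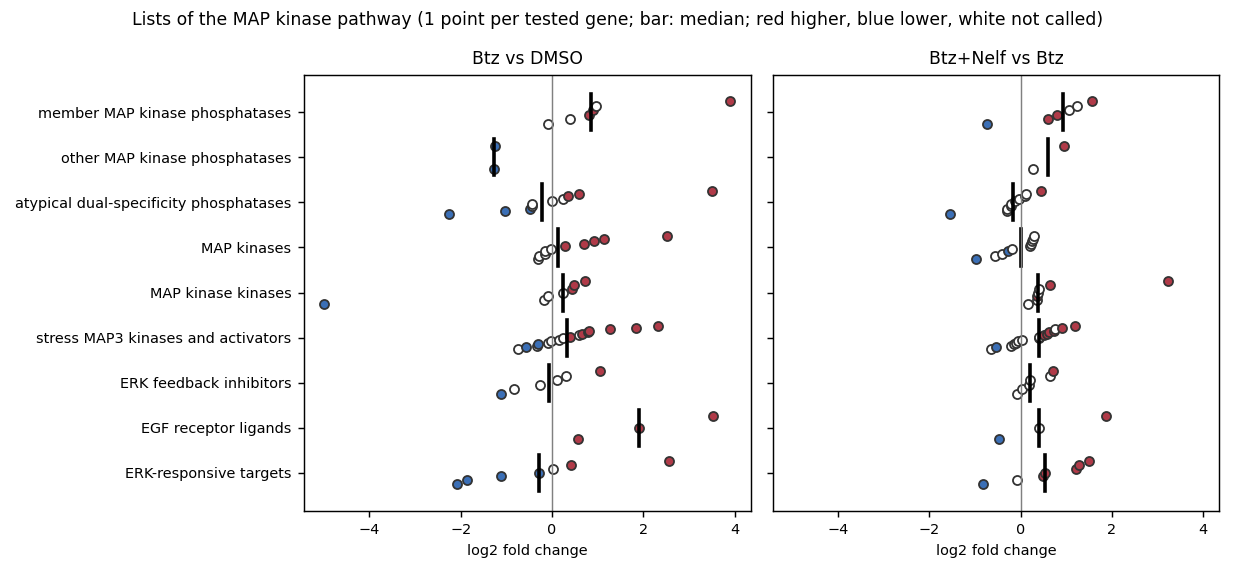
Log2 fold changes of all tested genes of 9 lists of the MAP kinase pathway in bortezomib against DMSO (left) and bortezomib with nelfinavir against bortezomib (right), 1 point per gene, with the list median as a bar, red points called higher, blue points called lower and white points not called. The point farthest to the left is MAP2K6, whose fitted value rests on 2 counts in bortezomib, and the member with the largest change is DUSP1 at 3.91.

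With ISRIB added to bortezomib, 3 of the 7 ERK-responsive targets rose and none fell (median 0.28), among them IER3 (0.78, adjusted p = 2.969e-04), beside 6.91% of all tested genes called higher and 5.34% lower. Of these, ETV4 was not called without bortezomib replicate 4 or bortezomib with ISRIB replicate 1. SPRY4, a Sprouty gene, was the 1 of 6 feedback inhibitors that rose, from 4.82 ± 1.03 to 9.92 ± 2.22 CPM (SD, n = 4 each, log2 fold change 1.05). EREG was the 1 of 3 ligands that fell, to 263 ± 35.0 CPM (SD, n = 4, log2 fold change -0.86). No MAP kinase or MAP kinase kinase was called, 1 of 16 stress MAP3 kinases and activators was lower, and of the other dual-specificity phosphatases 2 of 10 were higher and 1 lower. These last counts rest on single libraries. GADD45A was not called without bortezomib replicate 1, 2 or 4 or bortezomib with ISRIB replicate 3, DUSP12 not without bortezomib replicate 2, 3 or 4 or bortezomib with ISRIB replicate 2, DUSP22 not without bortezomib replicate 1, 2 or 4 or bortezomib with ISRIB replicate 2 or 3, and DUSP3 not without bortezomib with ISRIB replicate 3. All 3 DUSP calls were also lost in a fit of only the groups compared. In nelfinavir alone, beside 10.4% of all tested genes called higher and 8.84% lower, 2 of 10 MAP kinases, 2 of 16 stress MAP3 kinases and activators, 1 of 6 feedback inhibitors and 1 of 3 ligands rose with none lower, 1 of 7 MAP kinase kinases and 1 of 7 targets moved in each direction, and 1 of 10 other dual-specificity phosphatases rose. Of these, MAPK8 was not called without nelfinavir replicate 4, MAP3K2 not without nelfinavir replicate 1 and EREG not without nelfinavir replicate 1 or DMSO replicate 3.

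On GRCh37 the 6 members with a row lie on the minus strand of their chromosomes. DUSP1 spans chr5:172195099-172198198, DUSP6 chr12:89741012-89746278, DUSP8 chr11:1575281-1593501, DUSP16 chr12:12626216-12715797, DUSP10 chr1:221874766-221915431 and DUSP4 chr8:29190581-29208201. Long noncoding genes on the opposite strand overlap DUSP1, DUSP6, DUSP8 and DUSP16 in the annotation, and whether the authors counted by strand is not given here. The last 500 bases of each protein-coding transcript of the members matched another gene only for DUSP6. This match covered 467 bases of the noncoding gene ENSG00000274021, which has no row in the matrix. That gene lies on the other strand of the same locus, at chr12:89744792-89747048, and overlaps the 5′ part of DUSP6. The match is thus to the shared locus and not to a second copy, and the annotated 3′ end of DUSP6, at 89741012, lies outside that gene.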

How the data were processed

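RNA of 24 HepG2 libraries was sequenced with the QuantSeq 3′ FWD kit as single-end reads. The authors trimmed reads with cutadapt 2.8, aligned them with STAR to hg19 and deposited unnormalized read counts per gene. Whether counting used strand or molecular identifiers is not given here, so errors on counts cover counting error only. Genes were filtered with filterByExpr, given the treatment groups (minimum count 5, minimum total count 25). This filter does not ask for 5 counts in every library, and DUSP4 and DUSP10 passed with 0 counts in some. After TMM scaling, genes were tested by the quasi-likelihood test of edgeR 4.0.16 (R 4.3.3) in 1 model of the 24 libraries. The model had 1 coefficient for each treatment, with Benjamini-Hochberg adjustment over 12685 genes and a threshold of 0.05. The SE is the log2 fold change divided by the root of F. Single quantities were compared with exact permutation tests. Similar patterns were ranked by Pearson correlation of log2 CPM (prior count 2).

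The members and pathway lists were chosen with earlier results of these data known. All members were named, and from other lists at most the 3 called genes with the smallest p in a comparison. DUSP5, DUSP2 and 3 of the 15 atypical dual-specificity phosphatases had no row and were not analysed here. Correlations of log2 CPM were taken between libraries of different treatments, after subtracting each treatment's mean. They were above 0.1 in 10 of 60 pairs with the same replicate number and in 7 of 180 other pairs. The labels do not say that a number marks a shared culture, so libraries were treated as unpaired. Counts of replicates differed by more than sampling noise (lowest chi-square per degree of freedom 2.13). Alternatives were median-of-ratios, upper-quartile and library-total scaling, DESeq2 1.42.0, other filters, a fit of only the groups compared, a replicate block, each library left out in turn and, chosen after seeing the data, library totals without mitochondrially encoded genes. Promoters came from RefSeq (5 of the 7 members had an entry that was used), and transcript ends were aligned with BLAST.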

Additional observations from a re-analysis of the deposited data

Results flagged for a closer look

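Among the 36 sets of 4 libraries examined for the members, 1 had a library apart from the rest by Dixon's criterion, and chance alone would give about 5%. It was DUSP8 in bortezomib with nelfinavir, where the lowest library had 36 CPM and the other 3 had 45.0, 46.3 and 46.6 CPM. The gap was 0.854 of the group's range, above the 95% limit for 4 values. That library was still above all bortezomib libraries.

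The effect of nelfinavir differed with and without bortezomib for DUSP6, with an interaction of 0.98 on the log2 scale (edgeR's quasi-likelihood test, adjusted p = 8.079e-05), and for DUSP16, with an interaction of -0.87 (adjusted p = 0.04203). All 4 co-treated DUSP6 libraries were above all bortezomib libraries, whereas nelfinavir alone and DMSO overlapped. The DUSP16 interaction rests on few reads, 22 to 73 per library of the groups compared. It was lost in 10 of 16 fits that left out a library. It was also lost with no filter, with only the groups compared in the fit and with a replicate block, so it is not a firm difference.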

How the results depend on the processing

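Counts of members called were recomputed under each alternative. With library totals alone 3 members in place of 5 were higher and 1 in place of 0 lower for bortezomib on the nelfinavir background, 1 in place of 0 was lower for bortezomib on the ISRIB background, DUSP6 there reversed to -0.11, and MAP2K2 in bortezomib against DMSO reversed to -0.061. Library totals without mitochondrially encoded genes gave the same 3 counts of 3, 1 and 1, and 1 in place of 2 members higher in nelfinavir. With these totals edgeR also lost the DUSP1 call when nelfinavir was added to bortezomib (adjusted p = 0.08829). The DUSP6 call on the ISRIB background was lost with them too (0.18, adjusted p = 0.2142). Library totals alone also lost the DUSP8 call in bortezomib against DMSO. Upper-quartile factors and DESeq2 each called 1 member lower, and no filter and edgeR's default filter each 3 higher, for bortezomib on the nelfinavir background. There edgeR with upper-quartile factors and DESeq2 also lost the DUSP4 call (adjusted p = 0.05469 and 0.05802). No filter and a fit of only the groups compared called 0 in place of 1 lower when nelfinavir was added to bortezomib and 0 in place of 1 for the negative nelfinavir interaction. In the last count the replicate block also gave 0, with DUSP16 at -0.86 (adjusted p = 0.05449). The block called DUSP9 higher when nelfinavir was added to bortezomib (0.25, adjusted p = 0.04896) and between the co-treatments (0.28, adjusted p = 0.03314). It changed no other call of a member, and the replicate numbers are not known to pair the libraries.

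With each library left out in turn, members lower ran from 0 to 1 when nelfinavir or ISRIB was added to bortezomib, for bortezomib on the nelfinavir background and for both interactions. Members higher ran from 3 to 5 on the nelfinavir background, from 1 to 2 for nelfinavir alone and from 1 to 2 for the nelfinavir interaction. When nelfinavir was added to bortezomib, DUSP1 was also lost without bortezomib with nelfinavir replicate 2. Between the co-treatments DUSP4 was gained without bortezomib with ISRIB replicate 4. No member's called change reversed in these fits. The cause of these changes was not tested. Relative to TMM, scaling moved the balance of all genes. Library totals alone called 1584 genes higher and 6518 lower in place of 3639 and 3600 on the nelfinavir background, 1532 and 6397 in place of 3694 and 3243 on the ISRIB background, and 650 and 955 in place of 876 and 677 when ISRIB was added to bortezomib. For the ISRIB interaction they gave 278 positive and 285 negative calls in place of 372 and 240. Totals without mitochondrially encoded genes called 1120 higher and 2915 lower in place of 1975 and 1694 when nelfinavir was added to bortezomib, 957 and 2586 in place of 1669 and 1429 between the co-treatments, and 858 and 1836 in place of 1236 and 1269 for the nelfinavir interaction. Depth limits DUSP4 and DUSP10, which have at most 11 and 7 counts in a library.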
